A study of Mus musculus with 6 samples.

Results

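The genes described here are 10 transcription factors of the naive pluripotent state, namely Nanog, Klf2, Klf4, Klf5, Esrrb, Tfcp2l1, Tbx3, Zfp42, Nr5a2 and Prdm14. They were chosen as a named set, with earlier results of these data known, and all 10 were found once each among the 22933 Ensembl genes of the deposited table. The study sequenced ribosome-depleted total RNA of a mouse embryonic stem cell line with both Ezh2 alleles floxed (Ezh2 fl/fl). One group (n = 3 libraries) received 4-hydroxy-tamoxifen at 800 nM for 96 h, is labelled Ezh2 KO, and gave RNA 4 days after treatment. The other group (n = 3) is the same Ezh2 fl/fl line with no tamoxifen, labelled Ezh2 wild type, whose RNA was taken before treatment. All cells grew on gelatin with 10% serum, 5% serum replacement and leukaemia inhibitory factor (LIF) at 1000 U/ml, and the labels list no inhibitor of MEK or GSK3. The labels name no Cre driver and no vehicle, so effects of the drug, of the days in culture and of the deletion cannot be told apart.

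In embryonic stem cells the naive state resembles the inner cell mass of the blastocyst, and it is held by a network in which these factors activate one another together with Oct4 (Pou5f1) and Sox2. LIF acts through JAK and STAT3 on Klf4 and Tfcp2l1, WNT signalling relieves the repression of Esrrb by Tcf7l1, and FGF signalling through MEK and ERK pushes cells out of the state and lowers several of the factors. Ezh2 encodes the catalytic subunit of Polycomb repressive complex 2, which methylates lysine 27 of histone H3, mostly at CpG-rich promoters of silent developmental genes.

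The deposited values are normalized counts, and those of the members rest on 17 to 1516 recovered reads per library, which are whole reads per gene solved from the form of the deposited values. Recovered reads were also put on a scale of their own, here called scaled CPM, as reads per 1000000 reads after median-ratio scaling of the libraries, and as unscaled CPM, with no such scaling. Library totals of such reads lay between 2333978 and 5111706 in tamoxifen and between 2678122 and 5689696 in untreated libraries, and the 10 most abundant genes took 20.2% to 36.7% of them. Ezh2, the gene targeted, had normalized values of 2258, 2559 and 2609 in tamoxifen libraries against 4165, 3620 and 3483 in untreated libraries. These groups did not overlap, though they did on unscaled CPM, and the log2 change was -0.60 with a 95% interval from -0.91 to -0.29, but Ezh2 was not called (limma adjusted p = 0.157). On scaled reads the Ezh2 change was -0.40, with an interval from -0.89 to 0.09 that includes 0. The floxed exons are not named in the labels, and reads from the rest of Ezh2 count as well, so the gene's total does not measure the deletion. The stem cell markers listed for the check were Pou5f1, Sox2, Sall4, Utf1, Tdgf1, Dppa4, Dppa5a and Lin28a. They had values from 1343 (Dppa4) to 22615 (Sox2) in the 6 libraries, so RNA of each was present throughout. Endoderm markers also had reads, as given below, so these values do not show that other cell types were absent. Because each library comes from a bulk culture, fewer cells of a type and less RNA per cell cannot be told apart.

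Promoter sequences are shown first for 4 members, so that the letters can be read beside the values. Nanog and Tfcp2l1 had higher values after tamoxifen in every library, Zfp42 had lower ones, and Klf2 shows the G and C-rich kind of promoter. RefSeq windows (build GRCm38.p6, 250 bases before to 50 after the annotated start) were matched by symbol for 7 members, which are these 4 with Klf4, Esrrb and Nr5a2. Capitals mark the letters matched, on either strand, by the motifs spelled out after the sequences, and the Tfcp2l1 window holds none of them.
Nanog (chr6:122707239-122707538, plus strand): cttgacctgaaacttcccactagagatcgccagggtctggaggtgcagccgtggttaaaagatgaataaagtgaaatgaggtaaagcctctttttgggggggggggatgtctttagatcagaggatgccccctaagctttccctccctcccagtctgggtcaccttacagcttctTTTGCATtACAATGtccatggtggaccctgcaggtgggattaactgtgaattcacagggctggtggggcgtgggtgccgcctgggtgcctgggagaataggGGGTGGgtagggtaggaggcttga
Tfcp2l1 (chr1:118627695-118627994, plus strand): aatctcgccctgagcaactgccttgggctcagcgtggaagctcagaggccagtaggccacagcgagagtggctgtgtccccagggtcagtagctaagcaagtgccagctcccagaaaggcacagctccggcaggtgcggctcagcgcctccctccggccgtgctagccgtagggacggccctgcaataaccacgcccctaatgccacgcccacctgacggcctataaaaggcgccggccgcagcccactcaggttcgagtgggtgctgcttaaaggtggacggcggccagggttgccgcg
Zfp42 (chr8:43306960-43307259, minus strand): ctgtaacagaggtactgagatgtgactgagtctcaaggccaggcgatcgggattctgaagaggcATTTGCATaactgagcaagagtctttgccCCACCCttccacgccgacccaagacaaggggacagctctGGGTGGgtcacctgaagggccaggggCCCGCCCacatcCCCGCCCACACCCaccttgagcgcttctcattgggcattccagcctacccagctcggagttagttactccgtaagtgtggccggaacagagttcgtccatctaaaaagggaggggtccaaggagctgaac
Klf2 (chr8:72318812-72319111, plus strand): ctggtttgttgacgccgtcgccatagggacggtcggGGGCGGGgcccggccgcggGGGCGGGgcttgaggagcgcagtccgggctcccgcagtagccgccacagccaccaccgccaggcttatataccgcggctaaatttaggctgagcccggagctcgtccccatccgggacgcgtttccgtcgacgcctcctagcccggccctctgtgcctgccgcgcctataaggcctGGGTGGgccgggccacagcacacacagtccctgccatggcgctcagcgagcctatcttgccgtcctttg

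Motifs were searched on both strands in 10 windows of the 7 members, since Nanog, Esrrb and Nr5a2 have more than 1 annotated start, and in all 32851 windows of the RefSeq table. The octamer ATGCNAAT, the kind of site that Oct4 binds, occurred in the Zfp42 window, from position -186 to -179 before the start, and in 3.15% of all windows. Its shorter core ATGCAAA, a motif added after the sequences were seen, lay on the reverse strand in Nanog from position -75 to -69, with the SOX-type letters ACAATG from -67 to -62 beside it. That core was in 3 of the 10 member windows, both of Nanog and that of Zfp42, where it overlaps the octamer, and in 4.63% of all windows. ACAATG was in 3 of the 10, both of Nanog and 1 of Esrrb, and in 12.6% of all. The other SOX-type motifs were ACAAAG, found in 1 Nr5a2 window and 18.7% of all windows, and ATTGTT, found in 1 Esrrb window and 10.7% of all windows.

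Motifs of the KLF and SP families were searched in 3 forms. CCACCC was in 7 of the 10 member windows and 31.5% of all windows. The form GGGCGGG was in 3 of the 10, those of Klf2, Klf4 and Zfp42, and in 25.6% of all. The form GGGTGTGG was in the Zfp42 window, where it overlaps a GGGCGGG match by 2 bases, and in 3.56% of all. The 2 Nanog windows overlap and hold the same matches, so they are not separate observations. The STAT-type motif TTCNNNGAA was in 1 Esrrb window and 8.3% of all windows. The motif TCAAGGTCA, the kind of site that oestrogen-related receptors such as Esrrb bind, was in 0.423% of all windows and in none of the 10. These matches describe letters only.

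Base composition set the members apart from one another. The ratio of observed to expected CpG in the window was 0.974 in Klf4, 0.889 in Klf2 and 0.656 in Tfcp2l1, against 0.192 and 0.181 in the Nanog windows and 0.152 and 0.412 in the Nr5a2 windows. Zfp42 stood at 0.441 and the Esrrb windows at 0.266 and 0.318. The median over all windows was 0.384, with quartiles of 0.176 and 0.75. Thus Klf2 and Klf4 lay above the upper quartile and Tfcp2l1 between the median and that quartile, while the other members with a window ran from below the lower quartile to just above the median.

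The members were first placed by their level, as scaled CPM per kilobase of the union of annotated exons. Nanog, a homeodomain factor whose forced expression lets mouse stem cells renew without LIF, was the most abundant at 55.6 ± 3.38 in tamoxifen and 43.8 ± 4.80 in untreated libraries (SD, n = 3 each, as in the next sentences). Esrrb, an orphan nuclear receptor that can stand in for Nanog in self-renewal, followed at 39.7 ± 0.780 in tamoxifen and 39.4 ± 5.73 in untreated libraries. Tfcp2l1, a grainyhead-related factor downstream of STAT3, was next at 18.7 ± 0.0575 in tamoxifen and 12.6 ± 1.82 in untreated libraries. The remaining members averaged 5.64 to 11.9 over the 6 libraries, in the order Klf4, Tbx3, Zfp42, Klf2, Klf5, Prdm14 and Nr5a2. For scale, Pou5f1 stood at 126 ± 8.33 in tamoxifen and 145 ± 35.8 in untreated libraries and Sox2 at 76.3 ± 10.7 in tamoxifen and 85.6 ± 11.7 in untreated libraries, above the mean of every member.

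**Figure D1:**
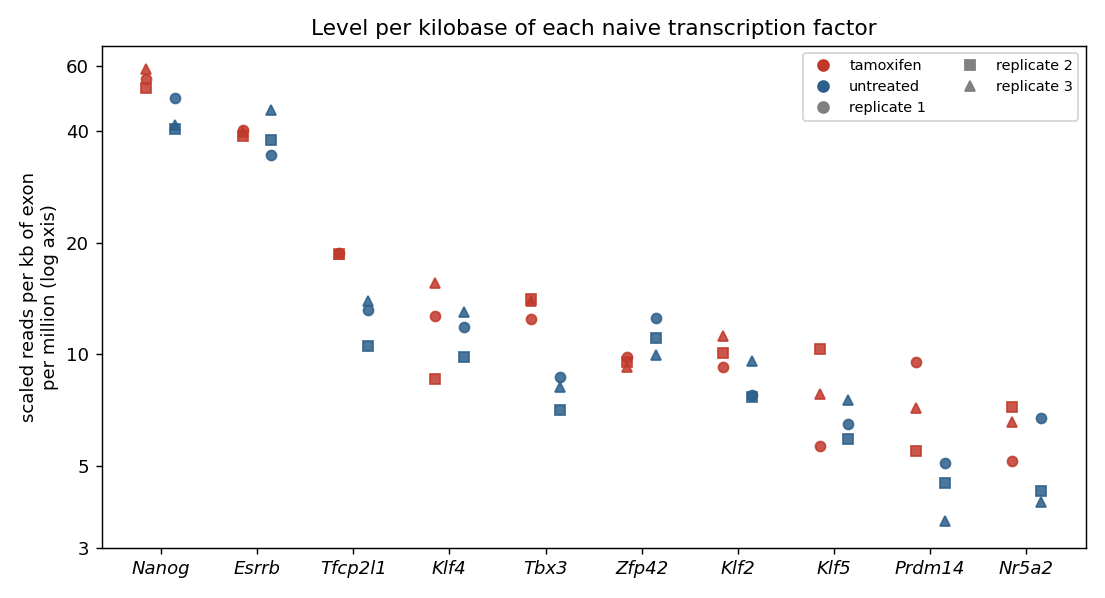
Scaled CPM per kilobase of exon (log axis) for each member, with tamoxifen libraries on the left of each pair and untreated libraries on the right, 1 point per library. Nanog (40.5 to 59.2) and Esrrb (34.6 to 45.7) lie above the other members. The others form a continuous range, in which Tfcp2l1 (10.5 to 18.8) overlaps Klf4 (8.55 to 15.5).

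The order of levels held between some neighbours and not others. Esrrb exceeded Tfcp2l1, and Tfcp2l1 exceeded Klf4, in 6 of 6 libraries. Nanog exceeded Esrrb in 3 of 3 tamoxifen and 2 of 3 untreated libraries. Tbx3 and Zfp42 changed places with the group, since Tbx3 was the higher of the pair in 3 of 3 tamoxifen and 0 of 3 untreated libraries. Prdm14 and Nr5a2 took either order, in 3 libraries each. Of the other neighbours, Klf4 exceeded Tbx3, Klf2 exceeded Klf5 and Klf5 exceeded Prdm14 in 5 of 6 libraries, and Zfp42 exceeded Klf2 in 4 of 6. Levels per kilobase depend on the exon union, which is longest for Tfcp2l1 (9438 bases) and shortest for Klf2 (1847 bases), and on which isoforms were made.

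The deposited scale gives another order, because a read was worth a different amount for each gene and library. One Klf2 read carried a value of 66.7, 74.8 and 32.7 in tamoxifen libraries against 57.4, 36.2 and 114 in untreated libraries. One Esrrb read carried 8.23, 11.1 and 5.14 in tamoxifen libraries against 8.22, 5.70 and 15.1 in untreated libraries. Klf2 had rank 2 among the members by deposited value per kilobase, against rank 7 by reads, while Nanog was the highest and Nr5a2 the lowest on both. Of the 10 members 6 kept their rank. Differences below are within a gene and on deposited values unless scaled reads are named.

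The comparison of the groups asks whether the naive network differs after tamoxifen was given to delete Ezh2. None of the 10 members was called in either direction by limma at an adjusted p under 0.05, where 15 of the 11842 genes tested were called (0.127%), 13 higher (0.11%) and 2 lower (0.0169%). All 10 were among the genes tested, which had at least 10 recovered reads per library on average. A p that misses the threshold does not show that a member was alike in both groups. At an unadjusted p under 0.05, 4 members were higher and 0 lower, where 6.85% of all genes were higher and 5.12% lower. Those 4 were Tbx3, Tfcp2l1, Nanog and Prdm14, and a change of at least the smallest of theirs was found in 7.9% of all genes. Limma on scaled recovered reads, where 5 genes in all were called, 5 higher and 0 lower (0.0422%), also called 0 members, as did limma on unscaled CPM, where 8 genes were higher and 0 lower. On scaled reads 3 members were higher at an unadjusted p under 0.05 (5.12% of all genes) and 0 lower (3.62%).

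**Figure D2:**
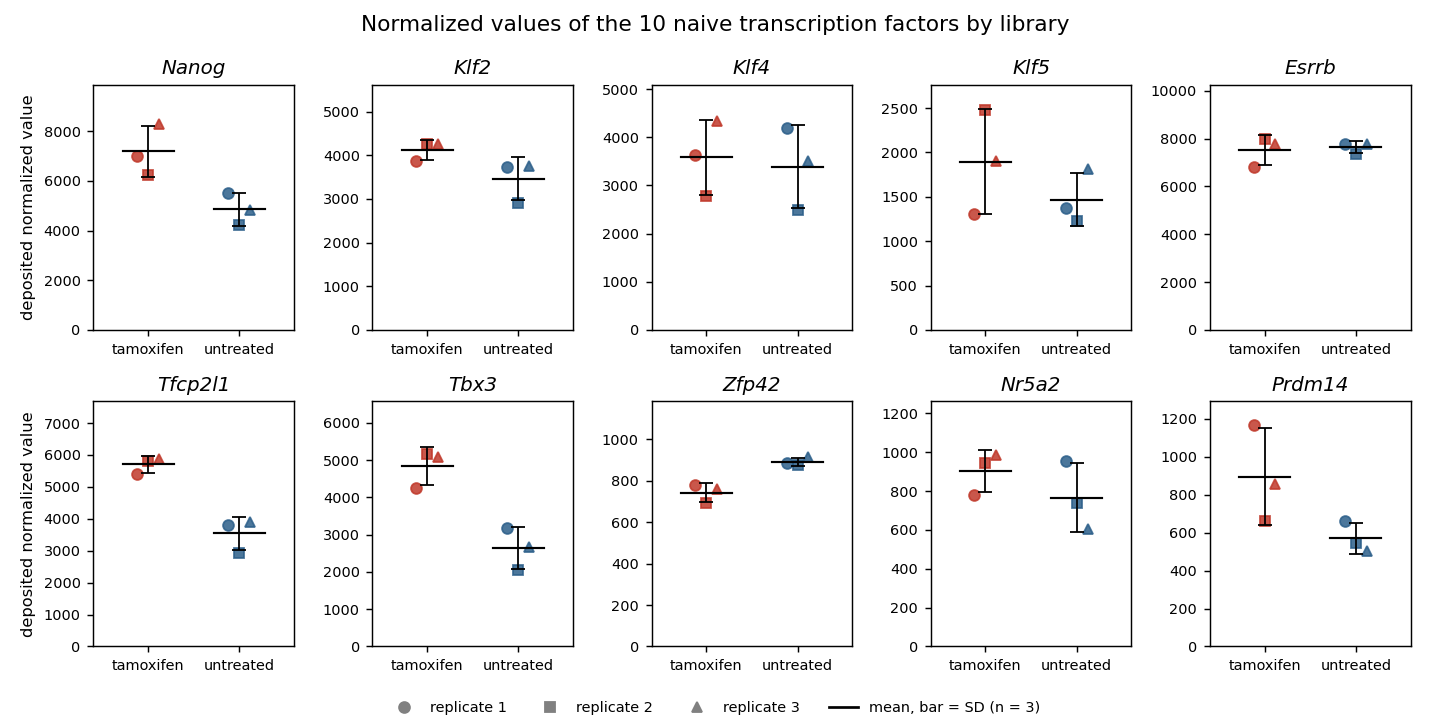
Deposited normalized value of each member in each library, with tamoxifen on the left and untreated on the right of every panel. Lines mark the mean and bars the SD (n = 3). Tfcp2l1, Tbx3, Nanog and Klf2 have all tamoxifen points above all untreated points, and Zfp42 has them all below.

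The largest difference among the members was that of Tbx3, a T-box factor that sustains Nanog expression and is also known to promote extraembryonic endoderm genes. Tbx3 (ENSMUSG00000018604, chromosome 5 of GRCm38, 119670669 to 119684724, plus strand) had normalized values of 4262, 5167 and 5099 in tamoxifen libraries against 3192, 2063 and 2665 in untreated libraries. Every tamoxifen library lay above every untreated one, and the lowest tamoxifen value exceeded the highest untreated value by more than the SD of either group, 504 in tamoxifen and 565 in untreated libraries. The log2 change was 0.89 with a 95% interval from 0.47 to 1.32, which is 1.86-fold (1.38 to 2.49), with an unadjusted limma p of 0.00140 and an adjusted p of 0.138 (0.116 to 0.588 over the alternatives). A two-sided exact permutation test of 3 against 3 libraries gave p = 0.1, the smallest it can give. On scaled reads the change was 0.75 (0.35 to 1.15), again without overlap, and the groups were also apart on unscaled CPM. The antisense gene Tbx3os1 shares 115 exon bases with Tbx3, and the strand setting of the counting is not given in the sources used here.

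Tfcp2l1 (ENSMUSG00000026380, chromosome 1, 118627945 to 118685168, plus strand) had 5411, 5819 and 5878 in tamoxifen libraries against 3796, 2939 and 3892 in untreated libraries. The tamoxifen libraries were close together and all above the untreated ones, of which replicate 2 was lowest. The log2 change was 0.70 (0.36 to 1.04), or 1.62-fold (1.28 to 2.05), with an unadjusted limma p of 0.00161 and an adjusted p of 0.147 (0.139 to 0.730 over the alternatives; exact permutation p = 0.1). On scaled reads the change was 0.58 (0.16 to 1.01), with 177, 177 and 177 scaled CPM in tamoxifen against 125, 99.1 and 132 scaled CPM in untreated libraries. The small nuclear RNA gene Gm23497 lies within Tfcp2l1 and shares 130 of its exon bases, so reads of both could be joined. The groups of Tfcp2l1 were apart on unscaled CPM as well.

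Nanog (ENSMUSG00000012396, chromosome 6, 122707489 to 122714633, plus strand) had 7006, 6257 and 8311 in tamoxifen libraries against 5527, 4224 and 4815 in untreated libraries. The groups did not overlap, and the log2 change was 0.57 (0.19 to 0.94), or 1.48-fold (1.14 to 1.92), with an unadjusted limma p of 0.00870 and an adjusted p of 0.245 (0.171 to 0.903 over the alternatives; exact permutation p = 0.1). The change was smaller on scaled reads, 0.35 with an interval from -0.06 to 0.75 that includes 0, although the groups still did not overlap there. On unscaled CPM Nanog had 109.7, 155 and 163 in tamoxifen against 129.96, 90.0 and 65.0 in untreated libraries, and these overlap. One Nanog read was worth a deposited value of 16.6, 17.3 and 9.99 in tamoxifen against 11.03, 8.25 and 27.7 in untreated libraries. The pseudogenes Nanog-ps1 and Nanog-ps2 resemble Nanog, and how reads that fit more than 1 place were counted is not given in the sources used here.

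Prdm14, a PR-domain factor that restrains FGF signalling and Dnmt3b and is also needed for primordial germ cells, rested on the fewest reads of the set, down to 17 in untreated replicate 3 (ENSMUSG00000042414, chromosome 1, 13113457 to 13127163, minus strand). Its normalized values were 1167, 661 and 857 in tamoxifen libraries against 662, 545 and 504 in untreated libraries. The groups touched, since tamoxifen replicate 2 and untreated replicate 1 had nearly the same value. The log2 change was 0.62 (0.08 to 1.16), or 1.54-fold (1.05 to 2.24), with an unadjusted limma p of 0.0305 and an adjusted p of 0.359 (0.264 to 0.663 over the alternatives; exact permutation p = 0.2). The unadjusted p was above 0.05 without tamoxifen replicate 1 (0.111), tamoxifen replicate 3 (0.0795), untreated replicate 2 (0.0868) or untreated replicate 3 (0.0937), all in limma. On scaled reads Prdm14 had 24.4, 14.01 and 18.3 scaled CPM in tamoxifen against 13.0, 11.5 and 9.11 in untreated libraries, which do not overlap, and the change was 0.68 (0.13 to 1.24).

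**Figure D3:**
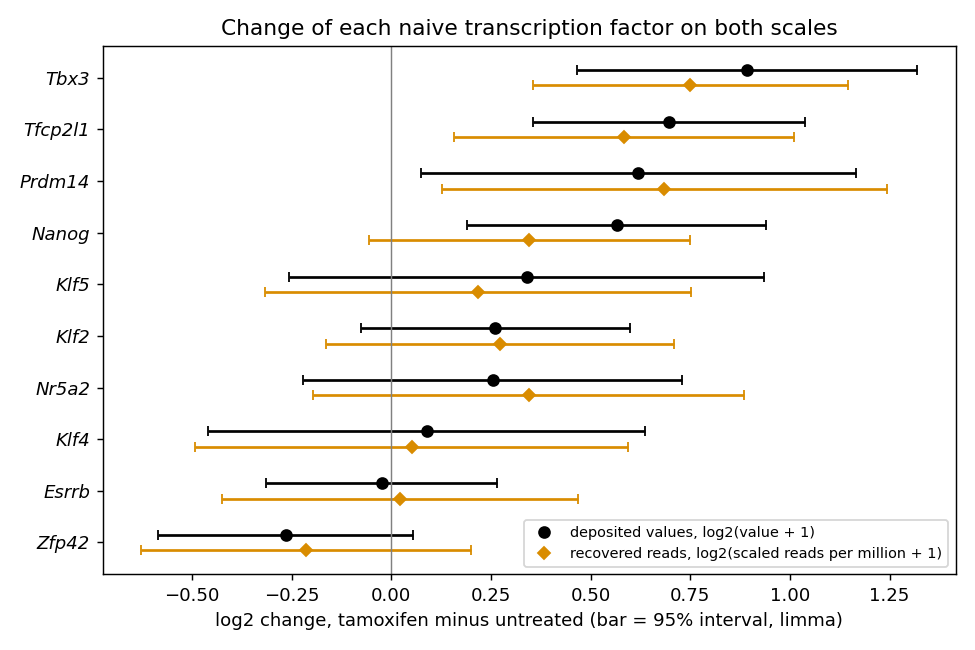
Log2 change of each member, tamoxifen minus untreated, with the 95% interval from limma, on deposited values (circles) and on scaled recovered reads (diamonds). The intervals of Tbx3, Tfcp2l1 and Prdm14 lie above 0 on both scales and that of Nanog on deposited values, and the other intervals include 0.

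The 3 Kruppel-like factors of the set, zinc-finger activators that overlap in function in stem cells, had smaller differences. Klf2 (ENSMUSG00000055148, chromosome 8, 72319033 to 72321656, plus strand) had normalized values of 3867, 4266 and 4250 in tamoxifen libraries against 3732, 2897 and 3765 in untreated libraries. These groups did not overlap, but the gap between them was small beside the untreated spread, and on scaled reads they overlapped. The log2 change was 0.26 (-0.08 to 0.60) and 0.27 (-0.16 to 0.71) on scaled reads. Klf4, a direct STAT3 target (ENSMUSG00000003032, chromosome 4, 55527143 to 55532466, minus strand), had 3638, 2781 and 4330 in tamoxifen libraries against 4193, 2481 and 3500 in untreated libraries. The groups of Klf4 were interleaved, with a log2 change of 0.09 (-0.46 to 0.64) and 0.05 (-0.49 to 0.59) on scaled reads. Klf5 (ENSMUSG00000005148, chromosome 14, 99298691 to 99315036, plus strand) had 1304, 2481 and 1908 in tamoxifen libraries against 1372, 1226 and 1809 in untreated libraries. The spread of Klf5 in tamoxifen libraries (SD 589) exceeded the difference of the means, and the log2 change was 0.34 (-0.26 to 0.94), or 0.22 (-0.32 to 0.75) on scaled reads.

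Replicate 2 of the tamoxifen group separated Klf4 from Klf5, because it held the lowest Klf4 and the highest Klf5 value of that group. The same held on scaled reads, where Klf4 had 38.8, 26.1 and 47.4 scaled CPM in tamoxifen against 36.2, 30.0 and 39.6 in untreated libraries. Klf5 had 29.4, 53.7 and 40.7 scaled CPM in tamoxifen against 33.8, 30.7 and 39.1 in untreated libraries. Without tamoxifen replicate 2 the log2 change was 0.12 for Klf5 and 0.26 for Klf4, so the order of the pair turned. Leaving out tamoxifen replicate 3 or untreated replicate 2 turned the sign of Klf4 (-0.059 and -0.12).

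The groups overlapped for both nuclear receptors of the set, Esrrb and Nr5a2. Esrrb (ENSMUSG00000021255, chromosome 12, 86361117 to 86521628, plus strand) had 6832, 7980 and 7786 in tamoxifen libraries against 7785, 7367 and 7785 in untreated libraries, on the most reads of any member. Its log2 change was -0.024, with the narrowest interval of the set (-0.31 to 0.27), and the sign turned on scaled reads (0.022, interval -0.42 to 0.47). The interval on deposited values puts the Esrrb fold between 0.804 and 1.202. Nr5a2, which binds the Pou5f1 promoter and can replace Oct4 in reprogramming mouse cells (ENSMUSG00000026398, chromosome 1, 136842571 to 136960448, minus strand), had 779, 944 and 983 in tamoxifen libraries against 954, 740 and 603 in untreated libraries. Its groups overlapped through untreated replicate 1, and the log2 change was 0.25 (-0.22 to 0.73), or 0.34 (-0.20 to 0.89) on scaled reads.

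Zfp42, better known as Rex1, a zinc-finger factor used as a marker of the naive state, ran the other way. Its normalized values (ENSMUSG00000051176, chromosome 8, 43295063 to 43306980, minus strand) were 778, 691 and 759 in tamoxifen libraries against 886, 876 and 913 in untreated libraries. All tamoxifen values lay below all untreated values, on deposited values and on scaled reads, and the untreated libraries differed little (SD 19.2), but on unscaled CPM the groups overlapped and the sign turned (0.042). The log2 change was -0.26 (-0.58 to 0.06), or 0.832-fold (0.667 to 1.04), with an unadjusted limma p of 0.0921 and an adjusted p of 0.501 (exact permutation p = 0.1), so Zfp42 was not called. On scaled reads the change was -0.21 (-0.63 to 0.20). The pseudogene Zfp42-ps1 resembles Zfp42, and its share of the Zfp42 reads is not known.

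Counted together, 4 of the 10 members (Nanog, Klf2, Tfcp2l1 and Tbx3) did not overlap and were higher after tamoxifen, where 9.49% of all genes tested were, and 1 (Zfp42) did not overlap and was lower, where 8.89% were. On scaled reads the counts were again 4 higher (7.3% of all genes) and 1 lower (7.68%), with Prdm14 in place of Klf2. The median log2 change of the members was 0.30, against -0.01 over all genes tested, of which 48.3% were above 0. Of the members 8 were above 0 on deposited values, 9 were on scaled reads, and 10 were on unscaled CPM, where Zfp42 and Esrrb turned positive and the median of all genes moved to 0.24. Relative to that shift, Zfp42 (0.042) stayed below the median gene and Esrrb (0.29) slightly above it. With 1 library left out, 7 members were above 0 without tamoxifen replicate 3 or untreated replicate 2, and 9 without tamoxifen replicate 1. These counts describe the set and no test was made of them.

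**Figure D4:**
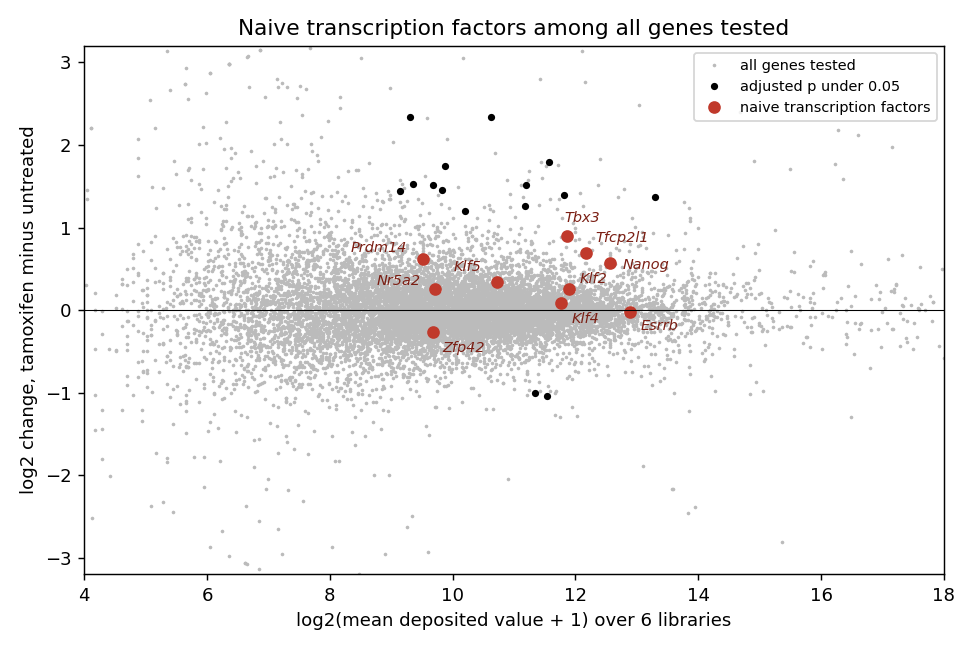
Log2 change against log2 mean deposited value for the 11842 genes tested (grey), the 15 called at an adjusted p under 0.05 (black) and the 10 members (red), with 70 genes outside the plotted ranges. The members lie between -0.26 and 0.89, and none is among the called genes.

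Shares within the set were examined because they do not depend on any factor per library. Each member's recovered reads were divided by the sum over the 10 members in the same library. Tbx3 made up 10.5%, 11.7% and 11.2% in tamoxifen libraries against 8.69%, 7.83% and 7.69% in untreated libraries. Tfcp2l1 made up 22.6%, 22.2% and 21.4% in tamoxifen libraries against 18.8%, 16.6% and 18.7% in untreated libraries. Both were higher in every tamoxifen library than in any untreated one (exact permutation p = 0.1 for each, the smallest it can give).

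Esrrb and Zfp42 took smaller shares. Esrrb made up 31.0%, 29.5% and 29.3% of the members' reads in tamoxifen libraries against 31.5%, 38.3% and 39.3% in untreated libraries, and Zfp42 2.35%, 2.25% and 2.10% in tamoxifen libraries against 3.56%, 3.47% and 2.67% in untreated libraries. Neither overlapped between groups (exact permutation p = 0.1 for each), though for Esrrb untreated replicate 1 lay close to the tamoxifen libraries. Shares are defined within the set only, so they have no rate over all genes. On scaled reads 7.3% of all genes were higher without overlap and 7.68% lower. The Nanog share was 15.8%, 14.8% and 16.1% in tamoxifen libraries against 16.7%, 15.2% and 13.3% in untreated libraries and overlapped, as did the shares of Klf2, Klf4, Klf5, Nr5a2 and Prdm14. A change of share shows that members changed unequally and does not say which of them changed.

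**Figure D5:**
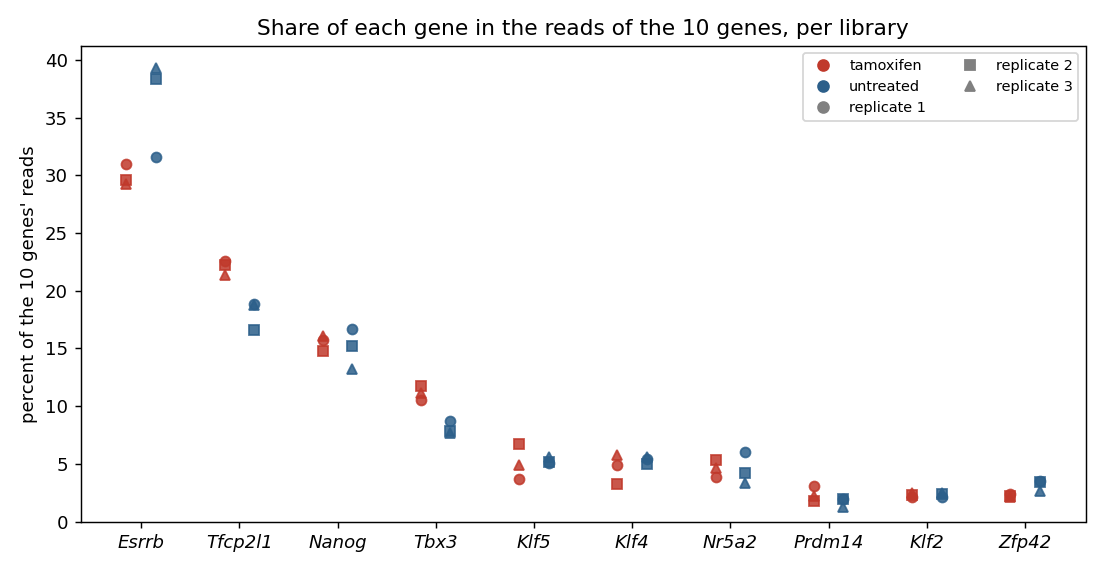
Percent of the 10 members' recovered reads taken by each member, with tamoxifen libraries on the left of each pair and untreated libraries on the right, 1 point per library. Tfcp2l1 (21.4% to 22.6%) and Tbx3 (10.5% to 11.7%) lie above their untreated points (at most 18.8% and 8.69%), and Esrrb and Zfp42 lie below theirs.

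The members together had 786, 795 and 826 scaled CPM in tamoxifen libraries against 662, 598 and 703 in untreated libraries, without overlap. In unscaled CPM the members' sums were 696, 1045 and 1014 in tamoxifen libraries against 779, 593 and 490 in untreated libraries, and there the groups overlapped. Esrrb, Tfcp2l1 and Nanog gave most of these reads in each library.

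The groups overlapped for the core factors that act with the members. Pou5f1 had normalized values of 14062, 14421 and 14422 in tamoxifen libraries against 18061, 16038 and 13340 in untreated libraries, and Sox2 had 13661, 12279 and 14772 in tamoxifen libraries against 22615, 10082 and 11461 in untreated libraries. On deposited values the highest of each was in untreated replicate 1, and the log2 changes were -0.13 (-0.49 to 0.22) for Pou5f1 and -0.026 (-0.71 to 0.65) for Sox2. On scaled reads untreated replicate 1 was instead the lowest of the 6 libraries for Pou5f1 (259 scaled CPM), and the changes were -0.17 (-0.69 to 0.36) for Pou5f1 and -0.17 (-0.62 to 0.29) for Sox2. Of 30 tested genes on a list of other pluripotency genes, 0 were called by limma in either direction. At an unadjusted p under 0.05, 0 were higher and 1 lower, where 6.85% of all genes were higher and 5.12% lower. The median log2 change of the list was -0.030 (-0.17 on scaled reads). The 1 lower gene was Dppa4, a chromatin factor of early embryos, with 1362, 1430 and 1343 in tamoxifen libraries against 2024, 1859 and 2139 in untreated libraries (log2 change -0.54, limma adjusted p = 0.173). Next by p was Nr0b1, a nuclear receptor that restrains Oct4 and Nr5a2 activity, with a log2 change of -0.35 (limma adjusted p = 0.421) and overlapping groups. On scaled reads the Nr0b1 difference was -0.59 with groups that did not overlap and an unadjusted limma p of 0.0198.

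Among 27 tested genes of the LIF, FGF, WNT and BMP inputs to the network, 0 were called. At an unadjusted p under 0.05, 4 were higher and 0 lower, where 6.85% of all genes were higher and 5.12% lower. The median log2 change of these inputs was 0.18 (0.032 on scaled reads). Id1 and Id2, inhibitors of helix-loop-helix factors induced by BMP, had the smallest p. Id1 had 5095, 6477 and 4883 in tamoxifen libraries against 3284, 3180 and 2555 in untreated libraries, a log2 change of 0.86 with adjusted p = 0.117 (limma). Id2 differed by 0.77 (limma adjusted p = 0.234). On scaled reads these changes were 1.31 for Id1 and 1.57 for Id2.

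Genes of the formative and primed epiblast, the states that follow the naive one, had 0 of 17 tested members called. At an unadjusted p under 0.05, 3 were higher and 1 lower, where 6.85% of all genes were higher and 5.12% lower. The median of the 17 was -0.16 (-0.20 on scaled reads), with 6 above 0 and 11 below. The genes of smallest p were both higher, unlike most of the list. Krt18, a keratin of early epithelia, stood at 0.89 (limma adjusted p = 0.182) and Lefty2, a Nodal antagonist, at 0.61 (limma adjusted p = 0.307). The other Kruppel-like factors had 0 of 11 tested members called and 0 at an unadjusted p under 0.05 in either direction, with a median of 0.21 (0.11 on scaled reads). Klf6 (0.55, and 0.60 on scaled reads) and Klf15 (0.35, and 0.27 on scaled reads) had the smallest p. Of the relatives of the remaining members, 4 were tested, 0 called and 0 past an unadjusted p of 0.05, with Tfcp2 at -0.27 (-0.14 on scaled reads) and Esrra at 0.18 (0.027 on scaled reads).

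Summed markers of endoderm and of trophoblast did not overlap between the groups. Of 14 tested markers of primitive and visceral endoderm, 12 were higher and 0 lower at an unadjusted p under 0.05 (0 called by limma). Of all genes tested, 6.85% were higher and 5.12% lower at that p. The median log2 change of the endoderm markers was 1.251 (1.12 on scaled reads). The change of Apoe was 0.80 but turned to -0.23 on scaled reads, and its groups overlapped on both scales. Their summed level over 18 markers was 1993 to 2321 scaled CPM in tamoxifen against 1356 to 1470 in untreated libraries, and 0 of the 18 were without reads. The defining factor Gata6 had 292, 351 and 302 in tamoxifen libraries against 117, 137 and 146 in untreated libraries, and Gata4 had 351, 497 and 370 in tamoxifen libraries against 176, 127 and 146 in untreated libraries. The 8 stem cell markers are all on the list of other pluripotency genes as well, so they are not a separate observation. Their summed level was 1217 to 1270 in tamoxifen against 1390 to 1518 in untreated libraries, without overlap. On deposited values that sum was 73648 to 82609.5 in tamoxifen against 68539.9 to 98711 in untreated libraries, and it overlapped, as it did on unscaled CPM. The endoderm and trophoblast sums did not overlap on any of the 3 scales. The part of an endoderm share in the members' values was not tested.

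The 10 trophoblast markers summed to 16.6 to 20.6 scaled CPM in tamoxifen against 7.501 to 10.3 in untreated libraries. Only 3 of the 10 had enough reads to be tested. Limma called 0 of them, and 0 were at an unadjusted p under 0.05 in either direction. The 10 fibroblast markers summed to 20.6 to 39.4 in tamoxifen against 13.5 to 45.2 in untreated libraries, with Lum at 0, and the 5 detected markers of 2-cell-like cells to 1.75 to 2.06 in tamoxifen against 1.07 to 1.99 in untreated libraries. These sums lie below Nanog (118 to 133 scaled CPM in tamoxifen and 90.8 to 111 in untreated libraries). In tamoxifen libraries the trophoblast sum was of the size of members of few reads, such as Klf2 (17.0 to 20.7). In untreated libraries it lay below Klf2 (14.2 to 17.7). The fibroblast sum reached above the Klf2 range in both groups. The part of these cell types in the members' values was not tested.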

How the data were processed

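The authors deposited 1 table of normalized counts per Ensembl gene, a signal that is neither whole reads nor reads over 1 factor per library, with nearly equal sums in the 6 libraries. Per the submitters' processing notes TopHat2, bedtools, DESeq2 and the build mm9 were used, with no versions. The annotation, strand setting and counting rule are not given in the sources used here. Columns were matched to libraries by genotype and replicate number.

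All 100305 deposited values above 0 fit c × k × (m + 0.1) / (k + 0.1) with whole k and m (largest relative misfit 5.11e-15, c = 9.73), and k was taken as the reads. A single solution existed for 98.8% of values, including all of the members. The values m differ between libraries by at most 4 when sorted, so all libraries share nearly 1 distribution of values, and a shift of the whole transcriptome would not be seen. Values were tested as log2(value + 1) with limma 3.58.1 (R 4.3.3, expression trend) over genes with at least 10 recovered reads on average, with Benjamini-Hochberg adjustment over all of them. The added 1 shrinks changes of low genes. The test was checked on simulated reads, where it missed most changes of 2-fold and found most changes of 4-fold. Scaled CPM are recovered reads per 1000000 after median-ratio scaling. Single members were also tested with an exact permutation test in scipy 1.17.1 (Python 3.11.15). Ensembl identifiers were looked up in GENCODE vM21 (GRCm38) for symbols, positions and exon lengths, with 20273 of 22933 matched. No coordinate of the authors' build was used.

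The members, gene lists and motifs were chosen with earlier results of these data known. Named beside the members are Ezh2, Pou5f1, Sox2 and the 2 tested genes of smallest p from each of the 5 lists of related and pathway genes. Marker lists are given by counts and sums. Gata4, Gata6, Apoe, Krt7, Esx1, Eomes and the markers that stand for a range or at 0 were named after their values were seen. Libraries of a group differed by more than counting noise (chi-square per degree of freedom of at least 11.9). Whether replicates were separate cultures is not given, so p-values measure the spread between these libraries, which may be technical.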

Additional observations from a re-analysis of the deposited data

How the results depend on the processing

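No member was called by limma under any alternative run, including each library left out in turn (0 of 10). Tbx3, Tfcp2l1, Nanog, Prdm14, Klf2, Klf5 and Nr5a2 kept a positive change throughout, with ranges of 0.73 to 1.04, 0.57 to 0.77, 0.46 to 0.66, 0.41 to 0.82, 0.14 to 0.33, 0.12 to 0.59 and 0.10 to 0.43 when a library was left out. Left-out ranges were -0.30 to -0.21 for Zfp42, -0.12 to 0.26 for Klf4 and -0.068 to 0.044 for Esrrb. Esrrb turned to 0.022 on scaled reads, with or without the replicate block, to 0.044 without tamoxifen replicate 1 and to 0.29 on unscaled CPM. Klf4 turned to -0.059 without tamoxifen replicate 3 and to -0.12 without untreated replicate 2, and Zfp42 to 0.042 on unscaled CPM. The members' median was 0.57 on unscaled reads, an alternative added after seeing the data, where the median of all genes was 0.24, and it ranged from 0.23 to 0.41 with a library left out. The count of all called genes, 15, depended on the processing. It was 34 with a filter on mean value, 52 with no filter, 6 with a pseudocount of 10, 5 on scaled reads, 8 on unscaled reads (8 higher and 0 lower), 3 without a trend, 0 with the replicate block on deposited values (1364 at an unadjusted p under 0.05) and 0 with it on scaled reads (896), and 0 to 1 with a library left out. The cause was not tested, except that fewer libraries or residual degrees of freedom enter the fits with a library left out or the block. Same-numbered libraries did not deviate together (correlations of -0.010, -0.044 and 0.011 across genes), so replicate numbers gave no sign of pairing. The labels do not say whether the libraries were paired, and these correlations cannot exclude it. By deposited value per kilobase 6 of 10 members kept their rank. Depth limits Prdm14, Klf2 and Zfp42 most, at 63.7, 70.5 and 81.0 reads on average.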
